A study of Mus musculus with 11 samples.

Results

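Genes of the unfolded protein response and the integrated stress response were followed in NSC34 cells, a mouse line made by fusing neuroblastoma with embryonic spinal cord and used as a model of motor neurons, after knockdown of Tardbp, which encodes the RNA-binding protein TDP-43. The genes were 48 symbols chosen by name for their place in these pathways, with earlier results of these data known. Of these symbols 44 were measured, of 15803 genes on the arrays. They covered the stress kinases and sensors, the phosphatase cofactors that end the response, the transcription factor Atf4 with its targets, and the targets of XBP1 and ATF6. Eif2ak1, Atf6, Phgdh and Manf had no probe set under those symbols. The older symbol of Manf, Armet, is on the array and stayed out of the counts. Its difference was 0.035 (SE 0.093, limma adjusted p = 0.859) against shGFP and -0.051 (SE 0.10, adjusted p = 0.816) against shLuciferase.

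RNA was hybridised to 11 Affymetrix whole-transcript arrays, and all levels are given as log2 expression values, so that a difference of 1 is a doubling. The groups were shTardbp (n = 4, a single hairpin against Tardbp), shGFP (n = 4, a control hairpin against GFP) and shLuciferase (n = 3, a control hairpin against Renilla luciferase), all from the same vector. The cells were stable clones picked under puromycin, and whether a group's arrays are separate clones or repeats of 1 clone is not in the labels. The p-values therefore measure only the spread between these arrays, and this spread may be technical. In RNA from a whole culture, fewer cells with a transcript and less transcript per cell cannot be told apart.

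Misfolded protein in the endoplasmic reticulum (ER) is sensed by 3 membrane proteins, PERK, IRE1 and ATF6. PERK and its sister kinases phosphorylate the translation initiation factor eIF2alpha, which lowers protein synthesis in general while raising translation of Atf4, whose product induces genes of amino acid supply, redox balance and cell death. IRE1 splices the Xbp1 messenger, and XBP1 and cleaved ATF6 induce chaperones and the machinery that removes misfolded proteins from the ER. The level of Atf4 messenger is thus a poor readout of ATF4 protein, and the arrays measure neither phosphorylation nor the splicing of Xbp1.

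The promoters of these genes carry short elements through which the branches act, and 7 promoters are shown because their genes stand for the different patterns described here. Each run gives the 150 bases before the RefSeq start site on the strand of the gene (GRCm38.p6), with the matching element in capitals. Atf3, Nupr1 and Slc7a11 hold the C/EBP-ATF response element (TGATGNAA), through which ATF4 acts. Syvn1 and Hspa5 hold the ER stress element (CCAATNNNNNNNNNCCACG), through which ATF6 acts. Herpud1 holds the C/EBP-ATF response element and ER stress element II (ATTGGNCCACG), and Myd116 holds a cAMP response element (TGACGTCA), the site of the CREB and ATF family.
Atf3, chr1:191183334-191183483, minus strand: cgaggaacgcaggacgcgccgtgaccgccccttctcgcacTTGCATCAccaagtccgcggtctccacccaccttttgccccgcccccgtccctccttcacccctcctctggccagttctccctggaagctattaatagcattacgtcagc
Nupr1, chr7:126625471-126625620, minus strand: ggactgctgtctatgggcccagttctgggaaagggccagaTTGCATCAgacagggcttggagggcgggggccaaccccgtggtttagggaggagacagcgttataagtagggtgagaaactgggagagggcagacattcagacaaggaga
Slc7a11, chr3:50443614-50443763, minus strand: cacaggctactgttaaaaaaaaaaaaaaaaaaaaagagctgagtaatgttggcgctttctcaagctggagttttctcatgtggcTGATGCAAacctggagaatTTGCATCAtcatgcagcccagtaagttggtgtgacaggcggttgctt
Myd116, chr7:45526269-45526418, minus strand: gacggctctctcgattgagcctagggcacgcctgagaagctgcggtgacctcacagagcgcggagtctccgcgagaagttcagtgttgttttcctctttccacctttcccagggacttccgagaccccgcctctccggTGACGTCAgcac
Herpud1, chr8:94386279-94386428, plus strand: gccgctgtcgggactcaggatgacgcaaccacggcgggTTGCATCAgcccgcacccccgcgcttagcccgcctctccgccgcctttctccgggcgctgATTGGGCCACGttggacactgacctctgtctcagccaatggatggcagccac
Syvn1, chr19:6046426-6046575, plus strand: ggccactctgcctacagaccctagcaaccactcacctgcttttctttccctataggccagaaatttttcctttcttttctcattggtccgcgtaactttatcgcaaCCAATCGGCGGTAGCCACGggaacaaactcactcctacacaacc
Hspa5, chr2:34771940-34772089, plus strand: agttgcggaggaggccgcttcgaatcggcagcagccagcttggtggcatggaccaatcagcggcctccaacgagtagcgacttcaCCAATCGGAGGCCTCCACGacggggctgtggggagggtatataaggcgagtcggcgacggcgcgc
Atf3 and Nupr1 hold their element on the opposite strand at the same place, from base -110 to -103 with the start at base 1. Slc7a11 holds it on both strands, from -66 to -59 and from -47 to -40.

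Windows of 300 bases (250 before and 50 after the start) were found for 41 of the 44 members, giving 46 windows, and Hyou1, Ppp1r15b and Slc7a5 had none. On either strand, the ER stress element was in 8 of the 46 windows (17.4%), against 0.119% of all 32851 windows of that length. It lay in Calr, Canx, Creld2, Dnajc3, Hsp90b1, Hspa5, Pdia6 and Syvn1. The C/EBP-ATF response element was also in 8 (17.4%, against 3.97% of all windows), namely Asns, Atf3, Chac1, Herpud1, Nupr1, Slc7a11, Trib3 and Vldlr. ER stress element II was in Dnajb11 and Herpud1 (4.35%, against 0.0365%), and the cAMP response element was in Myd116 alone (2.17%, against 1.79%), as a palindrome that reads the same on both strands. The letters TGACGTGG of the unfolded protein response element were in none of these windows and in 0.676% of all. The 5 motifs do not share letters in these hits, and a match describes letters in a window, not binding.

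Tardbp itself was 8.82, 8.80, 8.997 and 8.91 with shTardbp, 9.25, 9.08, 9.36 and 9.42 with shGFP, and 9.29, 9.38 and 9.20 with shLuciferase, in the array order shTardbp 1 to 4, shGFP 1, 2, 3 and 5, and shLuciferase 1, 2 and 4, which is kept throughout. The shTardbp arrays lay below all control arrays. Tardbp fell by 0.39 against shGFP (SE 0.081, limma adjusted p = 0.00212) and by 0.41 against shLuciferase (SE 0.088, adjusted p = 0.00327). The median probe set lay between 6.82 and 6.92 on the 11 arrays, and the lowest correlation between any 2 arrays was 0.9787. Of the motor neuron and neuroblastoma markers measured (14 of 17), Chat and Mnx1 lay below the 25th percentile of probe sets in all groups, while the cholinergic genes Slc18a3 and Ache and the motor neuron factor Isl1 had group means between 7.55 and 10.03, and the neuronal filament Prph between 12.33 and 12.54. Mean levels over that list spanned 8.30 to 8.55 with shTardbp, 8.21 to 8.37 with shGFP and 8.24 to 8.28 with shLuciferase, and of its 14 measured genes 6 rose and 3 fell against shGFP, 3 rose against shLuciferase, and 3 were higher and 4 lower in shGFP than in shLuciferase. Of all genes 12.4% rose and 15.5% fell against shGFP, and 11.8% rose against shLuciferase. Between the controls 6.26% were higher and 4.82% lower in shGFP. The markers Slc18a3 and Ache rose against both controls. The 3 with higher levels in the shGFP line were Isl1, Dbh and Gap43, with differences from shLuciferase of 1.11, 1.29 and 0.59 (limma adjusted p = 6.73e-05, 3.52e-06 and 0.000487). They fell in shTardbp against shGFP by 0.51, 1.11 and 0.42 (adjusted p = 0.00429, 1.73e-06 and 0.00101). Of the 19 ATF4 targets described below, 13 were called in these directions in each contrast, though not the same 13 genes. The part of these markers in the results was not tested.

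About as many stress genes fell in shTardbp against shGFP as were higher in shGFP than in shLuciferase, and against shLuciferase more of them rose than fell. Against shGFP, 21 of 44 members fell and 2 rose, where over all genes 15.5% fell and 12.4% rose (27.9% called in either direction). Against shLuciferase, 11 rose and 4 fell, with 11.8% and 14.3% of all genes (26.1% in either direction). Between the controls, 21 members were higher in shGFP and none lower by limma, against 6.26% and 4.82% of all genes (11.1% in either direction). At an unadjusted p under 0.05, 28 were higher in shGFP and 2 lower, with 11.5% and 11.2% of all genes. With the median of a gene's probe sets in place of their mean, limma called 14 higher and 1 lower, with 3.76% and 2.33% of all genes. Of the members, 43 lay above the median level of all genes. In a fit on genes above that level, 25 of them were called against shGFP, 15 against shLuciferase and 22 between the controls. Of all genes in that fit 46.9%, 45.3% and 19.9% were called, so the count against shLuciferase lay below its share.

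The median difference of the 44 members was -0.19 against shGFP, 0.048 against shLuciferase and 0.26 for shGFP against shLuciferase, where the medians of all genes were 0.0083, 0.0036 and -0.0069. Each pair of contrasts shares the arrays of 1 group, so their values are given side by side for each gene. Moving the same way against both controls, 4 members fell (Atf3, Myd116, Stc2 and Xbp1) and 2 rose (Syvn1 and Calr). Over all genes 9.39% fell and 7.69% rose against both (17.1% in either direction), and the members' counts did not exceed these shares. Among genes above the median level 6 of 43 members were called so, where 30% of those genes were. Of the 6 members, Atf3, Myd116 and Stc2 kept both calls in all 21 alternatives, and Xbp1, Syvn1 and Calr did not.

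**Figure D1:**
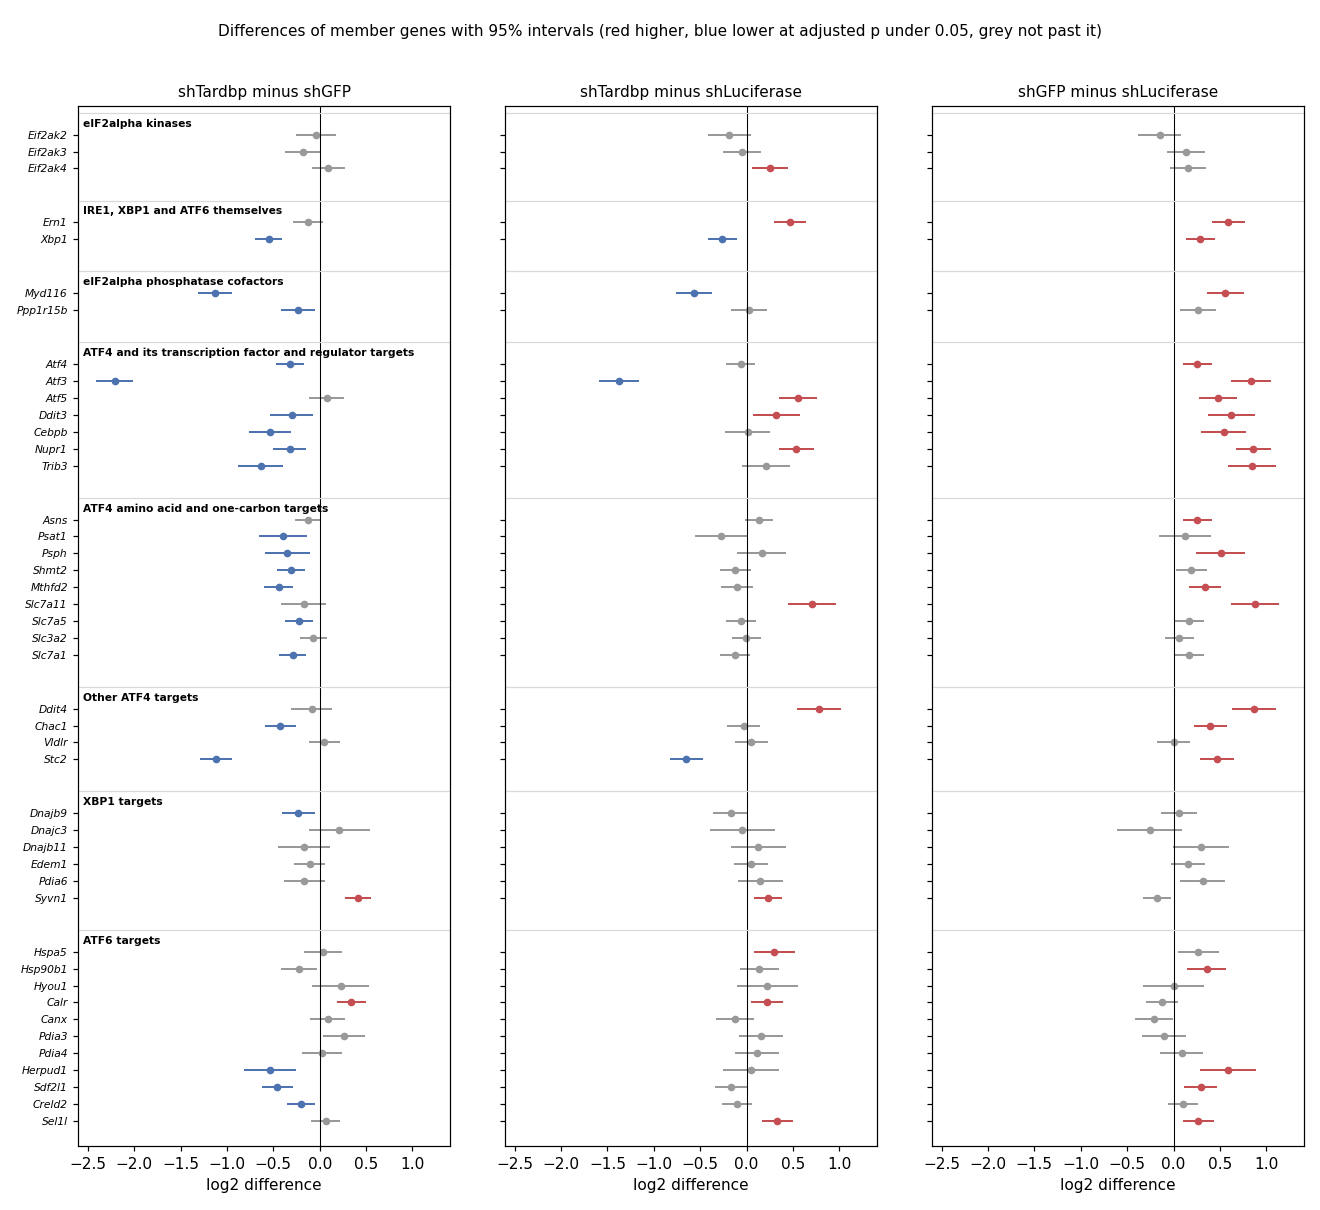
Log2 difference of each of the 44 members in the 3 contrasts, grouped by role, with 95% confidence intervals from the limma model. Most ATF4 targets lie left of 0 for shTardbp against shGFP and right of 0 for shGFP against shLuciferase, and Atf3, Myd116 and Stc2 lie left of 0 against both controls.

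**Figure D2:**
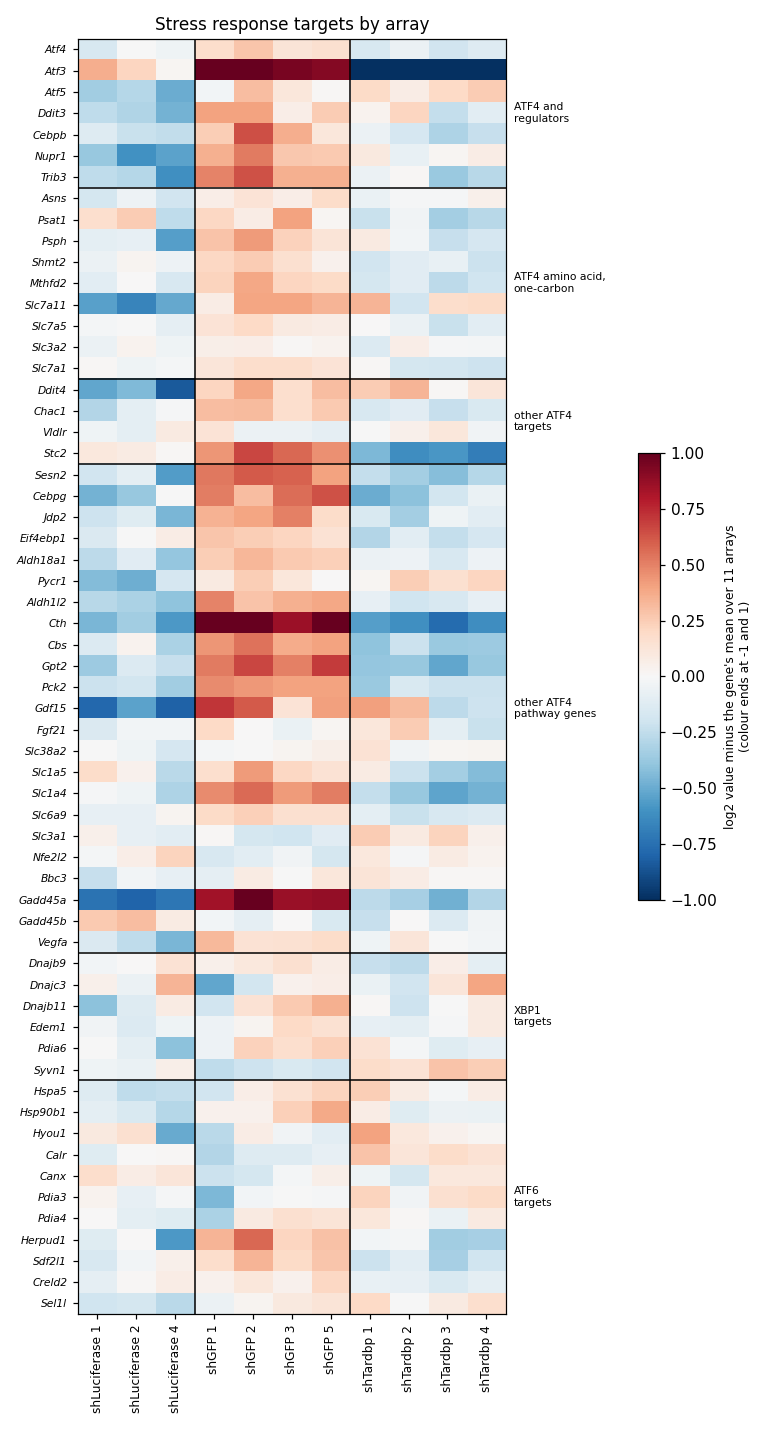
Log2 level of Atf4, the ATF4 targets, the other ATF4 pathway genes and the XBP1 and ATF6 targets on each of the 11 arrays. Each value is minus that gene's mean over the arrays, and rows are grouped by role. The kinases, Ern1, Xbp1, Myd116 and Ppp1r15b are not drawn. The 4 shGFP columns are the highest for most ATF4 targets, and the shTardbp columns are the lowest for Atf3 and Stc2.

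Of the eIF2alpha kinases, 3 of 4 were measured, and none passed the test against shGFP (0 also at an unadjusted p under 0.05 in the limma fit). Eif2ak3, which encodes PERK, was 8.24, 8.25, 8.10 and 8.24 with shTardbp, 8.22, 8.53, 8.35 and 8.44 with shGFP, and 8.40, 8.28 and 8.09 with shLuciferase, and the groups overlapped. Its difference was -0.18 (SE 0.084, limma adjusted p = 0.143) against shGFP and -0.048 (SE 0.091, adjusted p = 0.808) against shLuciferase. Eif2ak2, the double-stranded RNA kinase PKR, differed by -0.036 (SE 0.10, adjusted p = 0.858) and -0.19 (SE 0.10, adjusted p = 0.232).

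Eif2ak4, the amino acid sensor GCN2, was 7.38, 7.55, 7.40 and 7.36 with shTardbp, 7.35, 7.26, 7.40 and 7.31 with shGFP, and 7.27, 7.27 and 6.98 with shLuciferase. All shTardbp arrays lay above the shLuciferase arrays, of which shLuciferase 4 was the lowest. The rise against shLuciferase was 0.25 (SE 0.084, limma adjusted p = 0.042), with 0.094 (SE 0.078, adjusted p = 0.465) against shGFP. That call ended when shGFP 3, shGFP 5, shLuciferase 4, shTardbp 1, shTardbp 2, shTardbp 3 or shTardbp 4 was left out (adjusted p 0.0508 to 0.173), and without shLuciferase 4 the difference was 0.15.

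In the IRE1 branch itself, the call of Ern1 depended on the control, and Xbp1 fell against both. Ern1, which encodes the IRE1 kinase and nuclease, was 9.54, 9.50, 9.60 and 9.52 with shTardbp, 9.71, 9.63, 9.63 and 9.70 with shGFP, and 9.24, 9.05 and 8.94 with shLuciferase. The shTardbp and shGFP arrays all lay above the shLuciferase arrays, and the shTardbp arrays lay just under those of shGFP. Ern1 rose against shLuciferase by 0.46 (SE 0.075, limma adjusted p = 0.000404) and differed by -0.13 (SE 0.07, adjusted p = 0.222) from shGFP. It was 0.59 higher in shGFP than in shLuciferase (adjusted p = 0.000175), with all 24 probe sets on that side.

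Xbp1, the transcription factor whose messenger IRE1 splices, was 10.57, 10.58, 10.59 and 10.65 with shTardbp, 11.07, 11.23, 11.21 and 11.08 with shGFP, and 10.82, 10.92 and 10.84 with shLuciferase. The 3 groups did not overlap, with shGFP highest and shTardbp lowest. Xbp1 fell by 0.55 against shGFP (SE 0.063, limma adjusted p = 2.06e-05) and by 0.27 against shLuciferase (SE 0.068, adjusted p = 0.0095). All 12 probe sets were lower on average against both controls, and 1 of them stood far from the rest at -1.28 and -0.94.

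Around Xbp1, the 20 nearest measured genes on each side had a median shift of -0.30 against either control. With that shift subtracted, Xbp1 stood at -0.26 against shGFP, still past the threshold, and at 0.039 against shLuciferase (adjusted p = 0.729).

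The cofactors that bring protein phosphatase 1 to eIF2alpha were both lower against shGFP. Myd116, also called Ppp1r15a or GADD34, is induced by stress and restores translation, and it was 6.73, 6.87, 6.70 and 6.70 with shTardbp, 7.84, 8.09, 7.77 and 7.80 with shGFP, and 7.41, 7.32 and 7.22 with shLuciferase. The groups did not overlap, and shTardbp was lowest. Myd116 fell by 1.13 against shGFP (SE 0.08, 2.18-fold, limma adjusted p = 3.13e-07) and by 0.57 against shLuciferase (SE 0.087, 1.48-fold, adjusted p = 0.000253). All 5 of its probe sets were lower against both controls with no overlap of arrays.

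Ppp1r15b, the constitutive cofactor CReP, was 8.99 to 9.14 with shTardbp, 9.17 to 9.45 with shGFP and 8.88 to 9.14 with shLuciferase. It fell by 0.23 against shGFP (SE 0.08, limma adjusted p = 0.0418), and against shLuciferase it was 0.027 (SE 0.086, adjusted p = 0.899). The fall ended when shGFP 2, shGFP 3, shGFP 5, shLuciferase 2, shTardbp 2, shTardbp 3 or shTardbp 4 was left out (adjusted p 0.0516 to 0.128), and with the replicate number as a block (adjusted p = 0.119).

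Atf4 and the regulators it induces were higher in shGFP than in shLuciferase for all 7 genes measured, and 6 of the 7 fell in shTardbp against shGFP. Of all genes 6.26% were higher in shGFP than in shLuciferase, and 15.5% fell against shGFP. Atf4 was 10.71, 10.80, 10.67 and 10.73 with shTardbp, 11.04, 11.14, 10.99 and 11.02 with shGFP, and 10.70, 10.86 and 10.82 with shLuciferase. The shGFP arrays lay above all others, and the shTardbp and shLuciferase arrays overlapped. Atf4 fell by 0.32 against shGFP (SE 0.064, limma adjusted p = 0.00164), and against shLuciferase it was -0.064 (SE 0.069, adjusted p = 0.608). Between the controls it was 0.26 higher in shGFP (adjusted p = 0.0284), a call that ended when shGFP 2, shGFP 5 or shLuciferase 1 was left out (adjusted p 0.0556 to 0.138), and with the median of its probe sets (adjusted p = 0.478).

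Atf3, a stress-induced transcription factor and the member with the largest difference from shGFP, was 6.44, 6.57, 6.60 and 6.68 with shTardbp, 8.83, 8.93, 8.70 and 8.67 with shGFP, and 8.11, 7.96 and 7.77 with shLuciferase. The 3 groups did not overlap, and the shTardbp arrays lay more than a full log2 unit under every control array. Atf3 fell by 2.21 against shGFP (SE 0.087, 4.63-fold, limma adjusted p = 1.39e-09) and by 1.38 against shLuciferase (SE 0.094, 2.6-fold, adjusted p = 3.79e-07). Between the controls it was 0.83 higher in shGFP (SE 0.094, adjusted p = 6.73e-05). All 6 probe sets were lower in shTardbp against both controls with no overlap.

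Ddit3, which encodes the pro-death factor CHOP, took a middle place: 8.91, 9.08, 8.63 and 8.77 with shTardbp, 9.27, 9.27, 8.93 and 9.12 with shGFP, and 8.62, 8.57 and 8.40 with shLuciferase. The shTardbp arrays lay above all shLuciferase arrays and overlapped with shGFP. It fell by 0.30 against shGFP (SE 0.10, limma adjusted p = 0.0431) and rose by 0.32 against shLuciferase (SE 0.11, adjusted p = 0.0488). The fall ended when shGFP 1, shGFP 2, shGFP 5, shLuciferase 1, shLuciferase 2, shTardbp 1, shTardbp 3 or shTardbp 4 was left out (adjusted p 0.0508 to 0.143), and the rise ended when shGFP 1, shGFP 2, shGFP 5, shLuciferase 1, shLuciferase 2, shLuciferase 4, shTardbp 1, shTardbp 2 or shTardbp 4 was left out (adjusted p 0.0504 to 0.167). The difference between the controls, 0.62 (adjusted p = 0.00243), kept its call in all 21 alternative settings tried.

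Nupr1, a small stress-induced chromatin protein, had the same middle place with wider gaps: 10.09, 9.91, 10.002 and 10.05 with shTardbp, 10.34, 10.50, 10.26 and 10.24 with shGFP, and 9.60, 9.38 and 9.45 with shLuciferase. No group overlapped with another. It fell by 0.32 against shGFP (SE 0.077, limma adjusted p = 0.00597), rose by 0.54 against shLuciferase (SE 0.084, adjusted p = 0.000298) and was 0.86 higher in shGFP than in shLuciferase.

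Trib3, a pseudokinase that restrains ATF4 and CHOP, was 9.02, 9.09, 8.70 and 8.80 with shTardbp, 9.58, 9.72, 9.43 and 9.43 with shGFP, and 8.82, 8.79 and 8.46 with shLuciferase. The shGFP arrays lay above all others, and shTardbp overlapped with shLuciferase. Trib3 fell by 0.63 against shGFP (SE 0.11, limma adjusted p = 0.000497) and was 0.21 (SE 0.12, adjusted p = 0.228) against shLuciferase. Cebpb, a basic leucine zipper partner of CHOP and ATF4, fell by 0.53 against shGFP (adjusted p = 0.00106) and stood at 0.0099 (SE 0.11, adjusted p = 0.974) against shLuciferase.

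Atf5, a relative of Atf4, was the exception in this group, with 7.56, 7.44, 7.57 and 7.63 with shTardbp, 7.35, 7.68, 7.48 and 7.38 with shGFP, and 7.02, 7.09 and 6.88 with shLuciferase. Here shTardbp overlapped with shGFP, and both lay above shLuciferase. Atf5 rose by 0.56 against shLuciferase (SE 0.089, limma adjusted p = 0.000372), and its difference from shGFP was 0.077 (SE 0.083, adjusted p = 0.601).

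**Figure D3:**
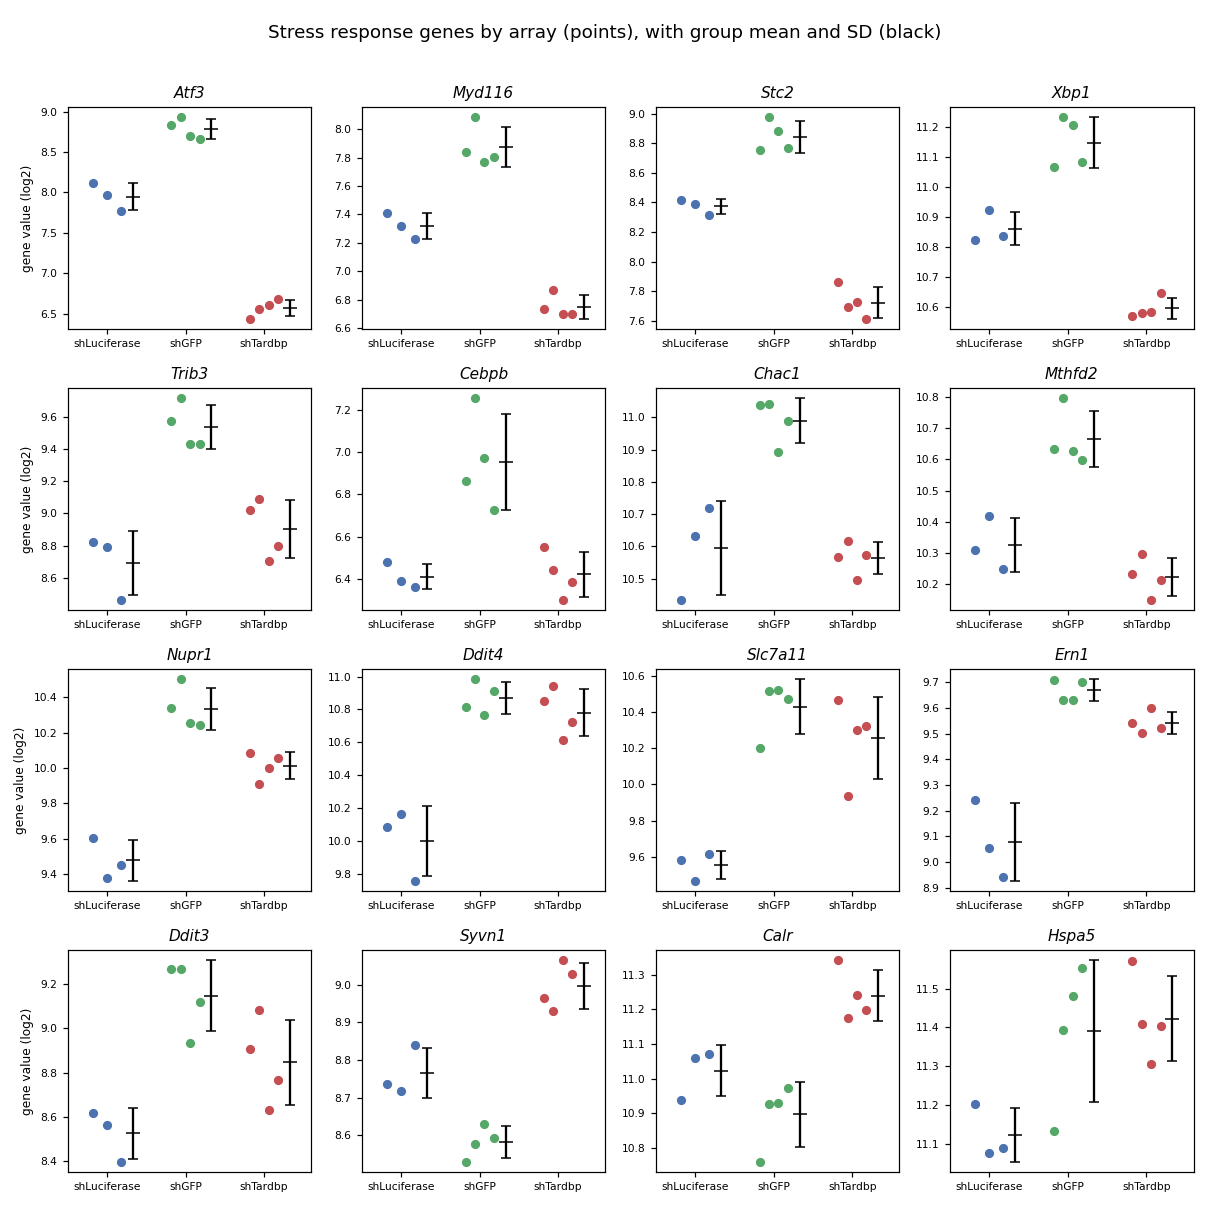
Log2 level of 16 members on each array, with 1 point for each of the 4 shTardbp, 4 shGFP and 3 shLuciferase arrays and a bar at each group mean. Each panel has its own axis range. Atf3, Myd116, Stc2 and Xbp1 show shTardbp below both controls, Ddit4 and Slc7a11 show shTardbp beside shGFP and above shLuciferase, and Syvn1 and Calr show shTardbp above both.

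The amino acid and one-carbon targets of ATF4 fell mostly against shGFP, by small amounts: 6 of the 9 measured fell, and all 9 differences were negative. Against shLuciferase 1 of the 9 rose and 8 did not pass the test, and between the controls 4 were higher in shGFP. Of all genes 15.5% fell against shGFP, 11.8% rose against shLuciferase and 6.26% were higher in shGFP than in shLuciferase. The 1 rise against shLuciferase thus lay near the share of all genes. Mthfd2, a mitochondrial folate enzyme, was 10.23, 10.30, 10.15 and 10.21 with shTardbp, 10.63, 10.80, 10.63 and 10.60 with shGFP, and 10.31, 10.42 and 10.25 with shLuciferase. The shGFP arrays lay above all others, and shTardbp overlapped with shLuciferase. Mthfd2 fell by 0.44 against shGFP (SE 0.068, limma adjusted p = 0.000233) and was -0.10 (SE 0.073, adjusted p = 0.381) against shLuciferase.

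Shmt2, which supplies the same mitochondrial folate pathway from serine, fell by 0.31 against shGFP (SE 0.066, limma adjusted p = 0.00241) and was -0.12 (SE 0.071, adjusted p = 0.266) against shLuciferase. The serine synthesis enzymes Psat1 and Psph fell by 0.40 and 0.35 against shGFP (adjusted p = 0.0186 and 0.0283). The amino acid carriers Slc7a1 and Slc7a5 fell by 0.29 and 0.22 (adjusted p = 0.00339 and 0.0209). The call ended for Psat1 when shGFP 3 or shTardbp 3 was left out (adjusted p 0.0581 to 0.0658), for Psph when shGFP 1, shGFP 2, shTardbp 3 or shTardbp 4 was left out (adjusted p 0.0585 to 0.0888) and for Slc7a5 when shGFP 2 or shTardbp 3 was left out (adjusted p 0.0607 to 0.0813). Asns, the asparagine synthetase, and Slc3a2, the heavy chain that partners Slc7a5 and Slc7a11, did not pass the test against either control, with -0.12 and -0.068 against shGFP.

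Slc7a11, the cystine carrier that feeds glutathione synthesis, and the 1 gene of this list that rose against shLuciferase, was 10.47, 9.94, 10.30 and 10.32 with shTardbp, 10.20, 10.52, 10.53 and 10.47 with shGFP, and 9.58, 9.47 and 9.61 with shLuciferase. The shTardbp and shGFP arrays overlapped and all lay above shLuciferase. It rose by 0.70 against shLuciferase (SE 0.12, 1.63-fold, limma adjusted p = 0.000459) and was -0.17 (SE 0.11, adjusted p = 0.291) against shGFP, with a 95% interval from -0.40 to 0.058.

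Stc2, a secreted glycoprotein among the other ATF4 targets, was 7.86, 7.69, 7.73 and 7.62 with shTardbp, 8.75, 8.98, 8.88 and 8.76 with shGFP, and 8.41, 8.39 and 8.32 with shLuciferase. The groups did not overlap, with shTardbp lowest and shGFP highest. Stc2 fell by 1.12 against shGFP (SE 0.073, 2.17-fold, limma adjusted p = 1.46e-07) and by 0.65 against shLuciferase (SE 0.079, 1.57-fold, adjusted p = 4.23e-05). All 9 probe sets were lower against both controls.

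Ddit4, which encodes the mTORC1 inhibitor REDD1, went the other way: 10.85, 10.94, 10.61 and 10.72 with shTardbp, 10.81, 10.98, 10.77 and 10.91 with shGFP, and 10.08, 10.16 and 9.76 with shLuciferase. The shTardbp and shGFP arrays overlapped and lay above all shLuciferase arrays. Ddit4 rose by 0.78 against shLuciferase (SE 0.11, 1.72-fold, limma adjusted p = 9.57e-05), the largest rise among the members in that contrast, and was -0.087 (SE 0.10, adjusted p = 0.619) against shGFP. All 5 probe sets were higher than in shLuciferase with no overlap of arrays.

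Chac1, which degrades glutathione, was 10.57, 10.62, 10.50 and 10.57 with shTardbp, 11.04, 11.04, 10.89 and 10.99 with shGFP, and 10.44, 10.63 and 10.72 with shLuciferase. Only shGFP lay clear of the other arrays. Chac1 fell by 0.43 against shGFP (SE 0.072, limma adjusted p = 0.000483) and was -0.032 (SE 0.078, adjusted p = 0.858) against shLuciferase. Vldlr, a lipoprotein receptor, lay below the 25th percentile of probe sets in every group (4.27 to 4.42 with shTardbp), and its differences were 0.049 and 0.049.

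Taking the 19 ATF4 targets as 1 list, 13 fell and 6 did not pass the test against shGFP (median -0.31), 5 rose and 2 fell against shLuciferase (median 0.0099), and 13 were higher in shGFP than in shLuciferase (median 0.47). Of all genes 15.5% fell against shGFP, 11.8% rose and 14.3% fell against shLuciferase, and 6.26% were higher in shGFP than in shLuciferase. At an absolute log2 difference of at least 0.5, 7 of the 44 members fell against shGFP, where 5.71% of all genes fell. Against shLuciferase 4 rose and 3 fell at that size, where 4.62% of all genes rose and 5.51% fell.

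Each array has a code in its label, which begins with P for all shTardbp arrays and shLuciferase 4, and with C for the other 6. The labels do not say what the letter stands for. No letter holds arrays of both shTardbp and shGFP, so this contrast is adjusted for the letter only through shLuciferase. With the letter as a block, 7 members were called against shGFP (6 lower, 1 higher), 12 against shLuciferase and 17 between the controls, where over all genes 12.2%, 18.8% and 10.1% were called. The count against shGFP thus lay near the share of all genes in that fit. Of the 19 ATF4 targets 3 fell against shGFP (6.52% of all genes) and 12 were higher in shGFP than in shLuciferase (5.49% of all genes). The 6 that fell against shGFP in that fit were Atf3, Myd116, Stc2, Xbp1, Chac1 and Sdf2l1, and the 1 that rose was Hyou1. Syvn1 and Calr did not pass against shGFP in that fit (adjusted p = 0.105 and 0.228), and Xbp1, Syvn1, Calr, Hspa5 and Ddit3 did not pass against shLuciferase (adjusted p 0.0732 to 0.322). Tardbp itself stood at -0.26 against shGFP there (limma adjusted p = 0.321).

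Within the letter P, the 4 shTardbp arrays lay all above shLuciferase 4 for 21 members and all below it for 11, where over all genes the shares were 26.3% and 36.9%. Within the letter C, the 4 shGFP arrays lay all above both shLuciferase arrays for 27 members and all below for 3, where over all genes the shares were 16.8% and 15.5%. Atf3, Myd116, Stc2 and Xbp1 had shTardbp means that differed from shLuciferase 4 by -1.20, -0.475, -0.59 and -0.24. When a gene's value was the median of its probe sets, 7 of the 15 calls against shLuciferase were lost, those of Eif2ak4, Ern1, Xbp1, Ddit3, Syvn1, Hspa5 and Calr (adjusted p 0.0512 to 0.387). Against shGFP, 6 of the 23 were lost, those of Ppp1r15b, Atf4, Nupr1, Slc7a5, Dnajb9 and Calr.

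Of 6 targets of XBP1, all measured, 1 rose and 1 fell against shGFP, 1 rose against shLuciferase, and limma called 0 between the controls (3 at an unadjusted p under 0.05). Their median differences were -0.14, 0.086 and 0.11. For these 6 genes the counts in the shTardbp contrasts lay near the shares of all genes called, 27.9% and 26.1%. Among genes above the median level the shares were higher, 46.9% and 45.3%. Between the controls 11.1% of all genes were called. Syvn1, the ubiquitin ligase HRD1 that marks misfolded ER proteins for removal, was 8.96, 8.93, 9.06 and 9.03 with shTardbp, 8.53, 8.58, 8.63 and 8.59 with shGFP, and 8.74, 8.72 and 8.84 with shLuciferase. The shTardbp arrays lay above all control arrays, and the shGFP arrays were the lowest. It rose by 0.41 against shGFP (SE 0.061, limma adjusted p = 0.000162) and by 0.23 against shLuciferase (SE 0.066, adjusted p = 0.0175).

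Of 18 probe sets of Syvn1, all were higher in the mean against shGFP and 17 against shLuciferase. Its nearest genes shifted in the same direction, by 0.21 and 0.12, and with that shift subtracted it stood at 0.21 against shGFP, still past the threshold, and at 0.11 against shLuciferase, no longer past it (adjusted p = 0.311). The rise against shLuciferase ended when shLuciferase 1, shLuciferase 2 or shTardbp 3 was left out (adjusted p 0.058 to 0.0744).

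Dnajb9, an ER co-chaperone that restrains IRE1, fell by 0.23 against shGFP (SE 0.078, limma adjusted p = 0.0405), but rests on 1 probe set and overlapped between the groups. Its call ended when shGFP 1, shGFP 2, shGFP 3, shGFP 5, shLuciferase 2, shTardbp 1, shTardbp 2 or shTardbp 4 was left out (adjusted p 0.0512 to 0.122). The co-chaperones Dnajc3 and Dnajb11, the mannosidase-like Edem1 and the disulfide isomerase Pdia6 did not pass the test in any contrast. Their differences from shGFP were 0.21, -0.17, -0.11 and -0.16, and from shLuciferase -0.047, 0.13, 0.046 and 0.15.

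Targets of ATF6 were mixed: of 11 measured, 1 rose and 3 fell against shGFP, 3 rose and 8 did not pass the test against shLuciferase, and 4 were higher in shGFP than in shLuciferase. Their median differences were 0.033, 0.14 and 0.10. In the same contrasts 27.9%, 26.1% and 11.1% of all genes were called, and the counts in the shTardbp contrasts lay near these shares. In the fit on genes above the median level the shares were 46.9%, 45.3% and 19.9%. There Hsp90b1 also fell and Pdia3 also rose against shGFP. Hspa5, the ER chaperone BiP and the usual marker of the response, was 11.57, 11.41, 11.31 and 11.40 with shTardbp, 11.13, 11.39, 11.48 and 11.55 with shGFP, and 11.20, 11.08 and 11.09 with shLuciferase. The shTardbp arrays lay above shLuciferase and overlapped with shGFP, where shGFP 1 was as low as the shLuciferase arrays. Hspa5 rose by 0.30 against shLuciferase (SE 0.10, limma adjusted p = 0.0364) and was 0.033 (SE 0.091, adjusted p = 0.868) against shGFP. The rise ended when shLuciferase 1, shLuciferase 2, shLuciferase 4, shTardbp 1, shTardbp 2 or shTardbp 4 was left out (adjusted p 0.0502 to 0.116).

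Calr, the calcium-binding lectin chaperone calreticulin, was 11.34, 11.18, 11.24 and 11.20 with shTardbp, 10.76, 10.93, 10.93 and 10.97 with shGFP, and 10.94, 11.06 and 11.07 with shLuciferase. The shTardbp arrays lay above all control arrays. It rose by 0.34 against shGFP (SE 0.069, limma adjusted p = 0.00185) and by 0.22 against shLuciferase (SE 0.075, adjusted p = 0.047), with all 9 probe sets higher in the mean. The call against shLuciferase lay at the threshold and ended when shGFP 2, shGFP 3, shGFP 5, shLuciferase 1, shLuciferase 2, shLuciferase 4, shTardbp 1, shTardbp 2, shTardbp 3 or shTardbp 4 was left out (adjusted p 0.0515 to 0.192).

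The genes of ER-associated degradation did not move together. Herpud1, which organises the HRD1 complex, was 9.94, 9.95, 9.62 and 9.64 with shTardbp, 10.30, 10.54, 10.19 and 10.26 with shGFP, and 9.85, 9.97 and 9.39 with shLuciferase. It fell by 0.54 against shGFP (SE 0.13, limma adjusted p = 0.00522) with no overlap, and was 0.049 (SE 0.14, adjusted p = 0.878) against shLuciferase. The shTardbp arrays overlapped with those of shLuciferase. With the array letter as a block its difference from shGFP was -0.021. Sel1l, the adaptor of HRD1, was 8.88, 8.68, 8.77 and 8.85 with shTardbp, 8.62, 8.71, 8.78 and 8.81 with shGFP, and 8.48, 8.50 and 8.41 with shLuciferase. Its shTardbp arrays overlapped with shGFP and lay above shLuciferase. It rose by 0.33 against shLuciferase (SE 0.074, adjusted p = 0.004) and was 0.066 (SE 0.068, adjusted p = 0.583) against shGFP.

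Sdf2l1, a partner of BiP, fell by 0.46 against shGFP (SE 0.073, limma adjusted p = 0.000293), and Creld2 fell by 0.20 (adjusted p = 0.0293), a call that ended when shGFP 2, shGFP 5, shTardbp 3 or shTardbp 4 was left out (adjusted p 0.0578 to 0.0981) and with the replicate number as a block (adjusted p = 0.109). Against shLuciferase they stood at -0.17 and -0.10 without passing the test. The chaperones Hsp90b1, Hyou1 and Canx and the disulfide isomerases Pdia3 and Pdia4 passed the test in neither shTardbp contrast, with differences from shGFP of -0.22, 0.22, 0.087, 0.26 and 0.024. Hsp90b1, the ER form of HSP90, was 0.36 higher in shGFP than in shLuciferase (adjusted p = 0.0222), a call that ended when shGFP 3, shGFP 5, shLuciferase 2 or shLuciferase 4 was left out (adjusted p 0.0581 to 0.0824).

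Set against the promoter elements, 7 of the 8 members with the C/EBP-ATF response element were higher in shGFP than in shLuciferase, 5 fell in shTardbp against shGFP, and against shLuciferase 2 rose and 1 fell. Of the 8 with the ER stress element, 1 was higher in shGFP than in shLuciferase, 2 rose and 1 fell against shGFP, and 3 rose against shLuciferase. Herpud1, with the C/EBP-ATF response element and ER stress element II, and Nupr1, with the first of these alone, both fell against shGFP. Of all genes 6.26% were higher in shGFP than in shLuciferase, 12.4% rose and 15.5% fell against shGFP, and 11.8% rose and 14.3% fell against shLuciferase. Among the 19 ATF4 targets, with or without the element, 13 were higher in shGFP than in shLuciferase and 13 fell against shGFP. Whether the elements separate the members was not tested.

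**Figure D4:**
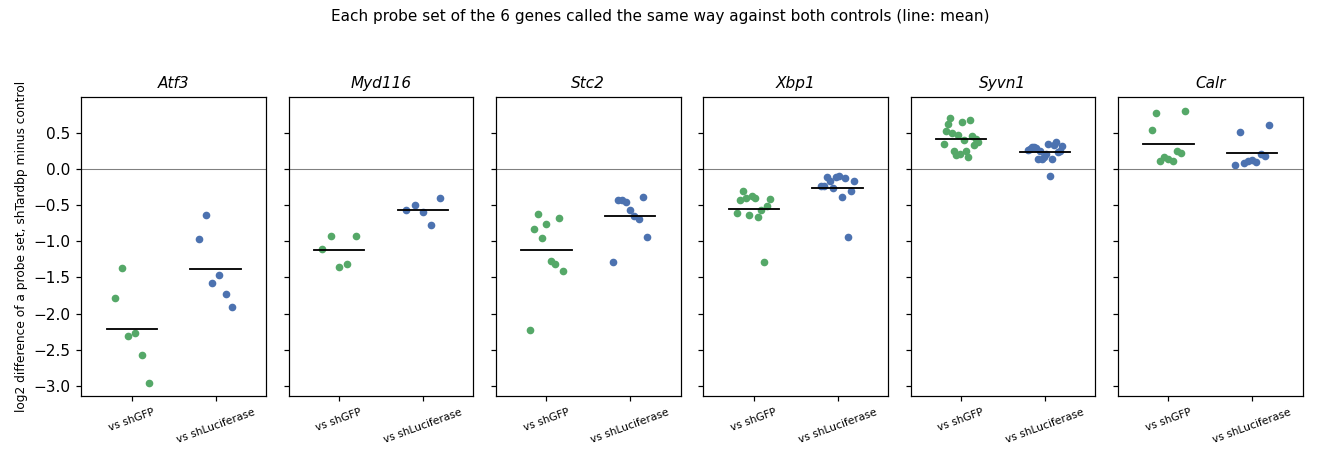
Log2 difference of every probe set of Atf3, Myd116, Stc2, Xbp1, Syvn1 and Calr, for shTardbp against shGFP and against shLuciferase, with the gene mean as a line. All probe sets of Atf3, Myd116, Stc2 and Xbp1 lie below 0 against both controls, and 1 Xbp1 probe set lies far below the others.

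Of 23 other genes known to answer to ATF4, all measured, 14 fell and 1 rose against shGFP, 4 rose and 2 fell against shLuciferase, and 15 were higher and 1 lower in shGFP than in shLuciferase. Their median differences were -0.42, 0.014 and 0.52. Against shGFP 15.5% of all genes fell and 12.4% rose, and 6.26% were higher and 4.82% lower in shGFP than in shLuciferase. The 6 called against shLuciferase lay near the 26.1% of all genes called there. Among genes above the median level, 5 of 20 rose and 2 fell against shLuciferase, where 45.3% of such genes were called. With the array letter as a block, 9 of the 23 fell and 0 rose against shGFP, where 6.52% and 5.71% of all genes did. In that fit 16 were higher and 1 lower in shGFP than in shLuciferase (5.49% and 4.66% of all genes). Cth, which makes cysteine from cystathionine, was 8.52, 8.45, 8.30 and 8.45 with shTardbp, 10.11, 10.10, 9.92 and 10.09 with shGFP, and 8.61, 8.72 and 8.50 with shLuciferase. Its shGFP arrays lay far above the rest, and it fell by 1.62 against shGFP (SE 0.074, 3.08-fold, limma adjusted p = 4.93e-09) while the difference from shLuciferase was -0.18 (SE 0.08, adjusted p = 0.127).

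Gadd45a, a growth arrest gene, was 7.11, 7.04, 6.89 and 7.07 with shTardbp, 8.21, 8.42, 8.23 and 8.25 with shGFP, and 6.63, 6.57 and 6.64 with shLuciferase. The groups did not overlap, with shTardbp between the controls. It fell by 1.25 against shGFP (limma adjusted p = 3.99e-08) and rose by 0.41 against shLuciferase (adjusted p = 0.00111).

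The subunits of eIF2 and of its exchange factor eIF2B, the target of eIF2alpha phosphorylation, fell or did not pass the test: of 6 measured, 2 fell against each control, and by limma 0 rose against either (0 also at an unadjusted p under 0.05). Of all genes 15.5% fell against shGFP and 14.3% against shLuciferase. Eif2b4 fell by 0.69 against shLuciferase (SE 0.11, limma adjusted p = 0.000457) and was -0.23 (SE 0.10, adjusted p = 0.128) against shGFP. Eif2b2 fell by 0.43 (adjusted p = 0.00214) and was -0.18 (SE 0.08, adjusted p = 0.123) against shGFP.

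Of 24 other genes of ER folding and degradation, 3 rose and 4 fell against shGFP, and 5 rose and 2 fell against shLuciferase. The 7 called in each contrast lay near the shares of all genes called there, 27.9% and 26.1%. Among genes above the median level the shares were 46.9% and 45.3%. Sil1, the exchange factor of BiP, rose by 0.69 and 0.62 against shGFP and shLuciferase (limma adjusted p = 0.0002 and 0.000904). Os9, a lectin of the HRD1 complex, rose by 0.47 and 0.25 (adjusted p = 0.000401 and 0.0387), the latter a call that ended when shGFP 5, shLuciferase 1, shLuciferase 2, shTardbp 1, shTardbp 3 or shTardbp 4 was left out (adjusted p 0.051 to 0.13).

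Of 10 other ER stress sensors and proteases, 1 rose and 3 fell against shGFP, and 3 rose and 3 fell against shLuciferase. The shares of all genes were 12.4% and 15.5% against shGFP, and 11.8% and 14.3% against shLuciferase. Creb3l2, a membrane-bound factor of the ATF6 kind, fell by 0.69 and 0.46 (limma adjusted p = 5.78e-05 and 0.00241). Mbtps2, the protease that completes the cleavage of ATF6, rose by 0.51 and 0.34 (adjusted p = 6.45e-05 and 0.00255).

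Among markers of other cells, Dcn, a fibroblast proteoglycan, had the same order of groups as Atf3 and Stc2, at 5.35 with shTardbp, 7.53 with shGFP and 6.38 with shLuciferase. Of the 6 fibroblast and mesenchyme markers, all measured, 1 fell against shGFP, 1 fell and 1 rose (Pdgfrb) against shLuciferase, and their mean level spanned 4.98 to 5.11 with shTardbp, 5.34 to 5.43 with shGFP and 5.07 to 5.19 with shLuciferase. Of all genes 15.5% fell against shGFP, and 14.3% fell and 11.8% rose against shLuciferase. Col1a1, Col1a2 and Col3a1 stood between 4.78 and 5.61 in all groups, and Lum lay below the 25th percentile of probe sets. Of the glia and Schwann cell markers measured (5 of 7), Mbp rose against both controls, and of those of muscle, epithelium and endothelium (6 of 7) Pecam1 did. Mean levels spanned 4.79 to 5.08 for the former list and 4.88 to 5.10 for the latter over all arrays. The part of these markers in the members' differences was not tested.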

How the data were processed

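The authors deposited a log2 expression value for each of 194293 probe sets on 11 arrays. Partek and RMA (no version) come from the submitters' processing notes. For that step, settings and annotation build were not given in the sources used here. Precision is limited by the number of arrays. The platform annotation gave 179496 probe sets 1 symbol, 1328 several and 13469 none. A gene's value was the mean over its probe sets with that single symbol (15803 genes). limma 3.58.1 in R 4.3.3 (lmFit, eBayes) fitted 3 groups on all arrays, with Benjamini-Hochberg adjustment over all genes, a threshold of 0.05 and no filter on low values. The fit was tested on simulated data.

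Genes were counted by role (kinases, sensors, phosphatase cofactors, ATF4, XBP1 and ATF6 targets), beside other ATF4 pathway genes, eIF2 and eIF2B subunits, other ER folding and degradation genes, other ER stress sensors and proteases, and markers of neurons and of other cells. Members and lists were chosen with earlier results of these data known. Given in full were Atf3, Atf4, Ddit3, Xbp1 and Hspa5, up to 3 members of each role with the smallest adjusted p in either shTardbp contrast, the member with the smallest between the controls, and up to 2 genes of each other pathway list. Trib3, Cebpb, Psat1, Psph, Slc7a1, Slc7a5, Creld2, Hsp90b1 and the cell markers were described after their values were seen.

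Deviations of same-numbered shTardbp and shGFP arrays correlated at 0.116 to 0.201 in 3 of 3 pairs. Differently numbered shTardbp and shGFP arrays correlated at -0.235 to 0.287, a range that holds those values. The other 5 same-numbered pairs stood at -0.0561 to 0.263. The labels do not say what a shared number means. Alternatives were the median of probe sets, a level filter, quantile normalization, centring, an intensity trend, array weights, the array letter or the replicate number as a block, subtraction of neighbouring genes, a fit on 2 groups, a fold threshold, and each array left out. Promoter windows are from RefSeq (GRCm38.p6).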

Additional observations from a re-analysis of the deposited data

Results flagged for a closer look

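Of 90 groups of 4 arrays looked at, 6 held an array set apart from the other 3 by Dixon's criterion at 95%, which chance gives in about 1 of 20 groups. In 4 of the 6 the array was shGFP 1. It was low for the disulfide isomerases Pdia3 (11.39, others 11.81 to 11.84) and Pdia4 (9.939, others 10.35 to 10.42), and for the cystine carrier Slc7a11 (10.20, others 10.47 to 10.53). It was high for the lipoprotein receptor Vldlr (4.446, others 4.219 to 4.252), a gene below the 25th percentile of probe sets. The array shTardbp 3 was low for the kinase gene Eif2ak3 (8.10, others 8.242 to 8.246) and shTardbp 1 was high for the amino acid carrier Slc7a1 (11.53, others 11.31 to 11.34).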

How the results depend on the processing

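Members called against shGFP numbered 23 and against shLuciferase 15 (27.9% and 26.1% of all genes). Between the controls they numbered 21, and the same way against both controls 6 (11.1% and 17.1% of all genes). With an absolute log2 difference of at least 0.5 required, they were 7, 7, 11 and 3, with 9.73%, 10.1%, 3.66% and 5.63% of all genes. The median of probe sets gave 8 against shLuciferase and 3 against both (18.2% and 11.2% of all genes). The array letter as a block left 7 against shGFP (12.2% of all genes), and turned Psat1 to 0.066 and Psph to 0.11 there. Subtracting neighbouring genes turned Xbp1 against shLuciferase to 0.039. Leaving out each array gave 17 to 23, 11 to 14, 16 to 25 and 4 to 6. Over all genes the shares were 23.8% to 29.8%, 21.3% to 26.7%, 7.62% to 11% and 14.4% to 16.8%. The count against both controls lay below its share each time. With the replicate number as a block the counts were 21, 12, 16 and 4 (24.9%, 25.1%, 6.33% and 15.6% of all genes). Beside members named above, this block ended the calls of Syvn1, Calr, Hspa5 and Eif2ak4 against shLuciferase. It also ended those of Ppp1r15b and Creld2 against shGFP, and of Xbp1, Atf4, Asns, Hsp90b1 and Sel1l between the controls. Kept calls were counted over 21 alternatives, which do not include the fold threshold. Calls kept in all 21 were 6 of 23 against shGFP, 8 of 15 against shLuciferase and 12 of 21 between the controls. Kept calls were not counted over all genes. Where an alternative changed a call, the cause was not tested. Genes near background, such as Vldlr, allow no statement on direction.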
